A study of Mus musculus with 9 samples.

Results

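The 10 genes described here encode cyclins, kinases and kinase inhibitors of the G1 phase of the cell cycle: Ccnd2, Ccnd3, Ccne1, Ccne2, Cdk4, Cdk6, Cdkn1a, Cdkn1b, Cdkn2c and Cdkn2d. They were taken by symbol from the deposited expression table, and 10 of 10 were found among its 24060 genes. All 10 passed the filter on low values, which kept the 11330 genes with a maximum above 1 TPM, a length-corrected share of all transcripts in a library.

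RNA was measured in 9 libraries of CD8 T cells, 3 for R7-I, 3 for R7-II and 3 for R7-III, called clones here. Each clone comes from a transnuclear BALB/c mouse line that was made from the nucleus of 1 T cell specific for the Toxoplasma gondii antigen ROP7, so the line carries the receptor of that cell and a clone stands for 1 receptor. The mice were Rag2-proficient, which leaves other lymphocytes in their spleens. In all 3 groups splenocytes received IL-2 (10 ng/ml) and the ROP7 peptide (10 µM) overnight before CD3+ CD8+ cells binding the H-2Ld-Rop7 tetramer were sorted. No unstimulated group was analysed here, so words such as rose and fell mean higher or lower than in another clone. The submitters rank the clones by affinity for the peptide as R7-I above R7-III above R7-II, and by self-reactivity as R7-III above R7-I above R7-II. The age of the mice and the number of mice per library are unknown here. The replicates are labelled as biological, and nothing further says whether they came from separate animals, so p-values measure the spread between these libraries.

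A resting T cell leaves quiescence when D-type cyclins, induced by receptor and cytokine signals, bind and activate CDK4 and CDK6. These kinases phosphorylate the retinoblastoma family of pocket proteins, which releases E2F factors, and E2F factors in turn switch on the E-type cyclins that activate CDK2 at the entry into S phase. The INK4 proteins, among them the products of Cdkn2c (p18) and Cdkn2d (p19), bind CDK4 and CDK6, while the CIP/KIP proteins, among them those of Cdkn1a (p21) and Cdkn1b (p27), act mainly on cyclin-CDK2 complexes and can also help to assemble cyclin D complexes.

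The libraries were alike within a clone, with Pearson correlations of log2(TPM + 1) between 0.992 and 0.997 across genes, and the table holds no read counts, so depth per library and counting error are unknown. The defining CD8 T cell genes were abundant in every library. Together 11 such genes reached 3910 to 3935 TPM in R7-II, 3097 to 3172 TPM in R7-I and 3346 to 3474 TPM in R7-III. Markers of other spleen cells were at low levels, and those of B cells, myeloid cells and MHC class II were highest in R7-II. Summed over 10 B cell genes they reached 36.7 to 75.8 TPM in R7-II and 5.31 to 15.9 TPM in the other 6 libraries, and over 12 myeloid genes 107.5 to 173 TPM in R7-II and 67.2 to 75.9 TPM in the others. Most of the myeloid sum outside R7-II was Cst3, at 59.8 to 70.5 TPM there and 76.0 to 82.2 TPM in R7-II. Lyz2 was at 13.8 to 56.7 TPM in R7-II and 0.25 to 2.43 TPM in the others. The 7 MHC class II genes summed to 112 to 183 TPM in R7-II and 24.3 to 50.3 TPM elsewhere. CD4 T cell genes summed to 4.03 to 5.81 TPM in R7-II, 3.36 to 4.11 TPM in R7-I and 5.62 to 8.01 TPM in R7-III. Erythroid genes summed to 1.30 to 15.1 TPM in R7-II, 22.1 to 73.3 TPM in R7-I and 8.99 to 25.5 TPM in R7-III. NK cell genes reached 0.67 TPM at most, in R7-III.

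Changes were tested with limma on log2(TPM + 1) over all 11330 genes with Benjamini-Hochberg adjustment, and a gene passed when its adjusted p was under 0.01. Between R7-II and R7-I, 8 of the 10 genes passed, 3 higher and 5 lower in R7-II. Over all genes tested 56.1% passed, 40.6% higher and 15.5% lower. Between R7-II and R7-III, 9 of the 10 passed, 3 higher and 6 lower, against 53.6% of all genes, 35.6% higher and 18.0% lower. In R7-III against R7-I, 3 of the 10 passed, all 3 upward, against 8.41% of all genes, 6.96% higher and 1.45% lower. Many genes thus moved between R7-II and the other clones, and the share of members that passed is to be read against that. The split by role was complete in R7-II against R7-I: the 5 genes that fell encode cyclins or Cdk4, and the 3 that rose encode inhibitors.

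Over the 11330 genes the median log2 fold change of R7-II was 0.17 when set against R7-I and 0.12 when set against R7-III, and that of R7-III over R7-I was 0.04. TPM values are parts of a fixed total, so fold changes near these medians depend on how the libraries are scaled. After each library was divided by a median-of-ratios factor, the 8 and 9 genes that had passed in the comparisons of R7-II passed again in the same direction, and Cdk6 passed in both as a lower gene. The members passing were then 9 of 10 against R7-I (54.7% of all genes), 10 of 10 against R7-III (53.3%), and 1 of 10 between R7-III and R7-I (8.59%). That scaling shifts the balance of directions over all genes: of those passing between R7-II and R7-I, 72.4% were higher in R7-II before it and 46.2% after it, and between R7-II and R7-III 66.4% before and 47.0% after, while the share higher in R7-III went from 82.8% to 56.6% for R7-III against R7-I.

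The libraries of 2 clones did not overlap for 8 of the 10 genes in R7-II against R7-I (71.2% of all genes), for 9 in R7-II against R7-III (70.6%) and for 7 in the remaining comparison (41.9%).

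**Figure D1:**
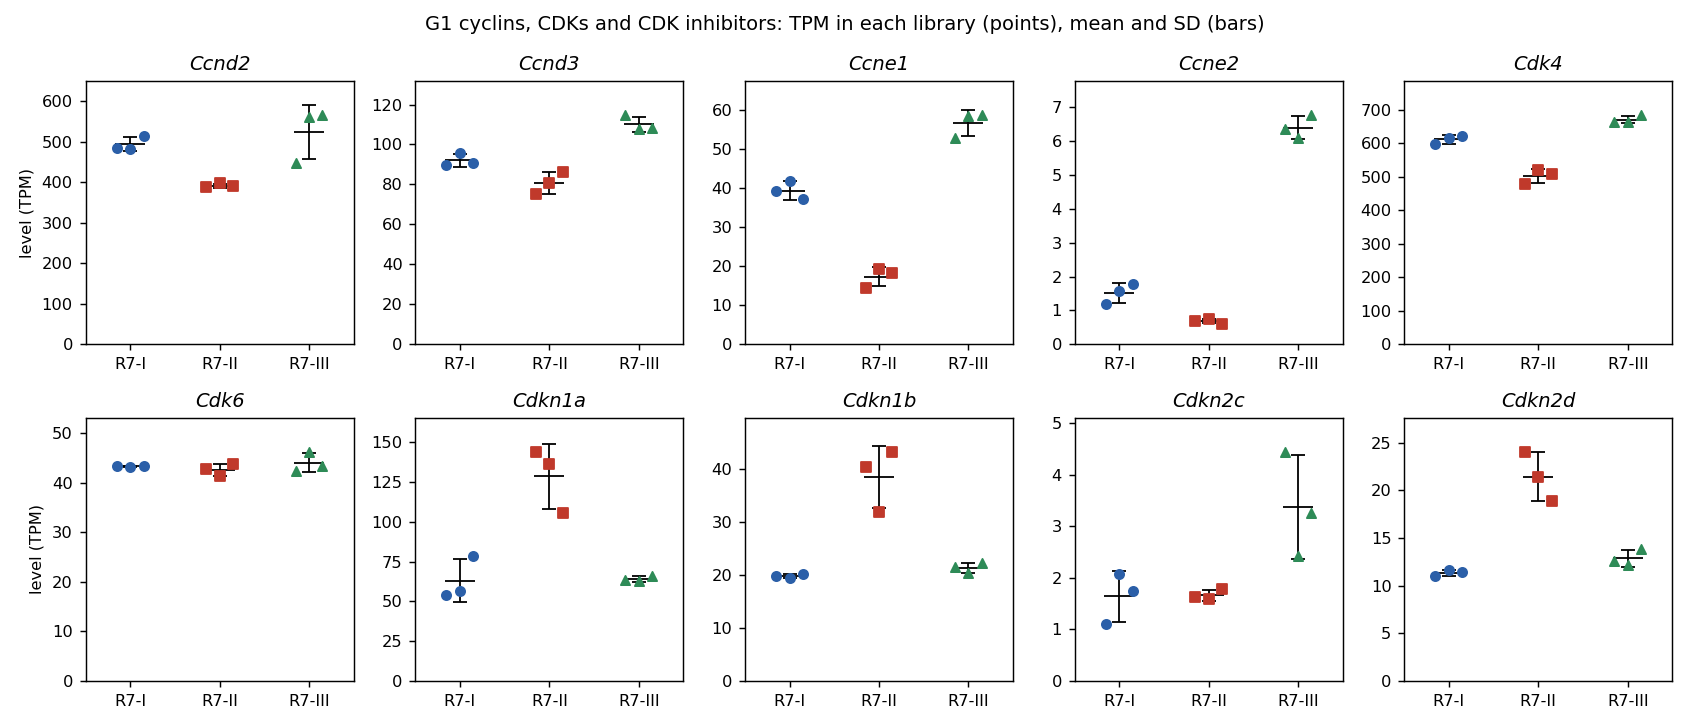
TPM of the 10 genes in each of the 9 libraries, 1 panel per gene with the level on a linear axis from 0; points are libraries, the horizontal line is the mean of a clone and the bar its SD (n = 3). The 3 R7-II libraries lie below the other 6 for Ccnd2, Ccnd3, Ccne1, Ccne2 and Cdk4 and above them for Cdkn1a, Cdkn1b and Cdkn2d.

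D-type cyclins are the first cyclins that mitogenic signals induce. Ccnd2, on chromosome 6 of mm10 (127125162 to 127152188), was the second most abundant of the 10 genes, with a mean of 470 TPM over all libraries. Its level was 386.9, 396.95 and 390.2 TPM in the R7-II libraries, 483.9, 483.1 and 513 TPM in those of R7-I and 448, 561 and 565 TPM in those of R7-III. All R7-II libraries lay below the other 6, while R7-III replicate 1 lay below the R7-I libraries and so the clones R7-I and R7-III overlapped. R7-II had a log2 fold change of -0.33 against R7-I (standard error 0.0731, adjusted p = 0.00210, limma) and -0.41 against R7-III (adjusted p = 0.000538, limma). Between R7-III and R7-I it was 0.08, with a 95% interval from -0.08 to 0.24 (adjusted p = 0.491, limma). That last comparison turned on 1 library. Without R7-III replicate 1 the log2 fold change of R7-III was 0.19 and passed (adjusted p = 0.00730, limma; over all alternatives between 0.00730 and 0.886). Without R7-I replicate 3 the change between R7-II and R7-I no longer passed (adjusted p = 0.0103, limma; over all alternatives between 1.16e-05 and 0.0103).

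Ccnd3, on chromosome 17 (47505051 to 47599689), the D-type cyclin that T cells also use, was at a lower level. It reached 75.0, 80.5 and 86.0 TPM in the R7-II libraries, 89.5, 95.8 and 90.9 TPM in those of R7-I and 115, 107.9 and 108 TPM in those of R7-III. The 3 clones did not overlap and stood in the order R7-II, R7-I, R7-III from low to high. On the log2 scale the fold change was -0.19 for R7-II against R7-I (adjusted p = 0.00593, limma), -0.45 for R7-II against R7-III (adjusted p = 2.22e-05, limma) and 0.26 for R7-III against R7-I (adjusted p = 0.00616, limma). The outer comparison, R7-II against R7-III, passed under every alternative run, and both comparisons with R7-I lie close to the threshold. The change between R7-II and R7-I was lost on leaving out R7-I replicate 1, 2 or 3 (adjusted p = 0.0102, 0.0275 and 0.0140) or R7-II replicate 1 or 2 (0.0194 and 0.0137, limma; over all alternatives 0.000273 to 0.0275), and also with no filter, without the trend or with only these clones fitted. R7-III against R7-I did not pass without any 1 of the R7-I libraries (adjusted p = 0.0312, 0.0108 and 0.0230 without replicates 1, 2 and 3) or of the R7-III libraries (0.0296, 0.0180 and 0.0173, limma; over all alternatives 0.00172 to 0.0368), nor with no filter, without the trend or after either rescaling of the libraries. The gene overlaps Bysl on the genome, which averaged 77.0 TPM for R7-II, 95.8 TPM for R7-I and 90.6 TPM for R7-III, and the reads carried no strand, so reads of the shared stretch cannot be assigned by strand.

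Together the D-type cyclins reached 461.9 to 477 TPM in R7-II, 573 to 604 TPM in R7-I and 563 to 673 TPM in R7-III. Ccnd2 held 79.6% to 84.95% of this sum in every library, so the proportion of the transcripts varied little between clones while their sum was lowest in R7-II. The third D-type cyclin, Ccnd1, was at 0.24 to 0.78 TPM in all libraries and was not tested.

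E-type cyclins, the activators of CDK2 at the start of S phase, held the largest log2 fold change of the 10 genes in each comparison, with 2 exceptions among the alternatives. Without R7-I replicate 3 Cdkn1a (1.19) and Ccne1 (-1.19) were level between R7-II and R7-I. With a filter of at least 1 TPM in every library Ccne2 was not tested, and Cdkn2c (0.72) exceeded Ccne1 (0.51) between R7-III and R7-I. Ccne1, on chromosome 7 (38097984 to 38107490), was at 14.5, 19.25 and 18.25 TPM in the R7-II libraries, 39.2, 41.9 and 37.1 TPM in those of R7-I and 52.8, 58.6 and 58.7 TPM in those of R7-III. The 3 clones were apart from each other, again with R7-II lowest and R7-III highest. The log2 fold change was -1.15 for R7-II against R7-I (standard error 0.0919, adjusted p = 1.98e-06, limma) and -1.66 for R7-II against R7-III (adjusted p = 1.94e-07, limma). A change of this size or larger was seen in 5.45% and 2.38% of all genes tested in these comparisons. R7-III exceeded R7-I by 0.51 on the log2 scale (adjusted p = 0.00369, limma). This call was lost on leaving out R7-I replicate 1 or 3 (adjusted p = 0.0177 and 0.0171) or R7-III replicate 2 or 3 (0.0187 and 0.0184, limma; over all alternatives 0.000378 to 0.0190). With median-of-ratios scaling it was 0.46 with an adjusted p of 0.0131 from limma, and it did not pass with quantile normalization, no filter or no trend either.

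Ccne2, on chromosome 4 (11190433 to 11204779), was expressed at a far lower level. It was at 0.70, 0.74 and 0.61 TPM in the R7-II libraries, 1.19, 1.56 and 1.79 TPM in those of R7-I and 6.35, 6.08 and 6.76 TPM in those of R7-III. R7-III stood well above both other clones, and the 3 clones did not overlap. The log2 fold change of R7-III against R7-I was 1.56 (standard error 0.110, adjusted p = 1.41e-05, limma), a size reached by 0.247% of all genes tested. It was -2.14 for R7-II against R7-III (adjusted p = 1.47e-07, limma) and -0.57 for R7-II against R7-I (adjusted p = 9.20e-04, limma). These 3 calls held under every alternative in which the gene was tested, which leaves out the filter of at least 1 TPM in every library. The fold changes of a gene this low depend on the pseudocount: R7-III against R7-I was 2.03 with a pseudocount of 0.1 and 0.81 with one of 5. As plain ratios of means, R7-III had 4.23 times the Ccne2 TPM of R7-I and 9.36 times that of R7-II. Ccne2 overlaps Ints8, a more abundant gene at 52.1 ± 2.41 TPM for R7-I, 50.7 ± 1.53 TPM for R7-II and 44.8 ± 0.484 TPM for R7-III (mean ± SD, n = 3), and the share of Ccne2 reads that could come from it was not tested. Ints8 was lowest in R7-III, where Ccne2 was highest.

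The change in Ccne2 was out of proportion to that in Ccne1 in R7-III. Ccne2 made up 9.41% to 10.7% of the summed TPM of both genes in R7-III, 2.94% to 4.60% in R7-I and 3.23% to 4.61% in R7-II. R7-I and R7-II overlapped in this share and R7-III stood above both, although the level of Ccne1 itself differed by more between R7-II and R7-I than between R7-III and R7-I. This share does not change when each library is divided by 1 factor. With quantile normalization the log2 fold change of R7-III over R7-I was 1.43 for Ccne2 and 0.45 for Ccne1. With 1 TPM added to both genes, the ratio of Ccne1 to Ccne2 went from 26.9 to 16.3 for R7-I, from 25.5 to 10.9 for R7-II and from 8.88 to 7.81 for R7-III, and R7-III was lowest either way.

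**Figure D2:**
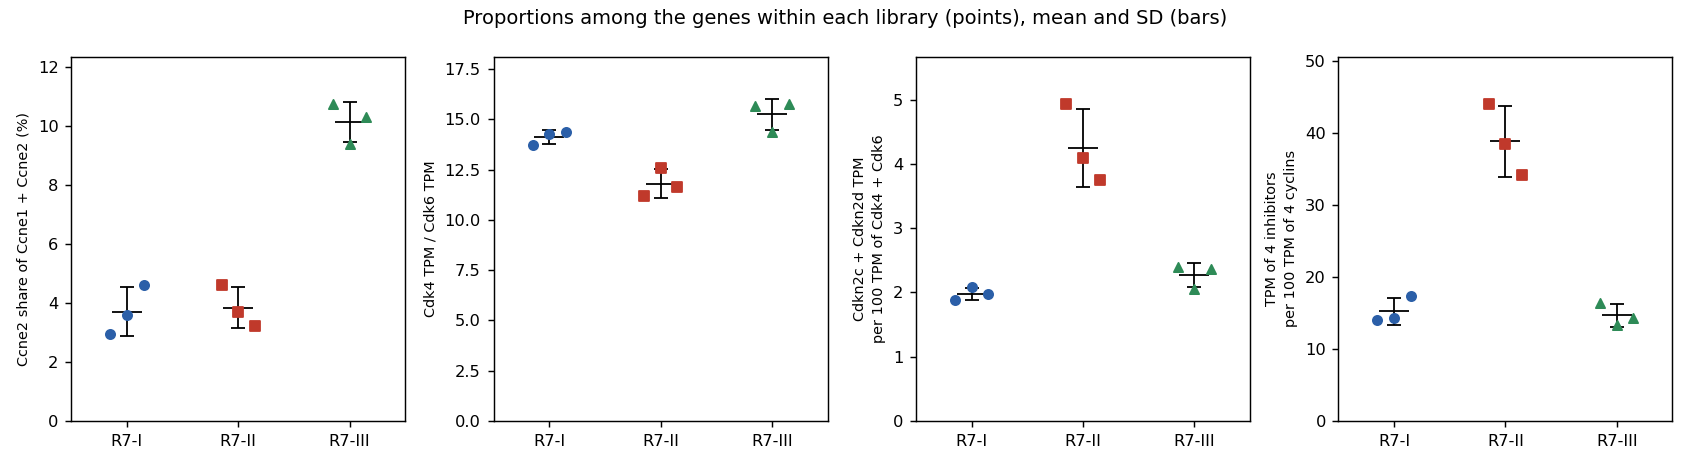
Proportions within each of the 9 libraries on linear axes from 0; points are libraries, lines and bars the mean and SD of a clone (n = 3). The Ccne2 share of E-type cyclin TPM (percent) is set apart in R7-III at 9.41% to 10.7%, and the Cdk4 to Cdk6 ratio, INK4 TPM per 100 TPM of Cdk4 and Cdk6, and inhibitor TPM per 100 TPM of cyclins are set apart in R7-II.

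The kinases that D-type cyclins bind differed from each other in pattern. Cdk4, on chromosome 10 (127063535 to 127067288), was the most abundant of the 10 genes and ranked 203 of 11330 by mean level. It was at 478, 521 and 507 TPM in the R7-II libraries, 597, 616 and 622 TPM in those of R7-I and 664, 664 and 684 TPM in those of R7-III. The spread within a clone was small and the 3 clones did not overlap. The log2 fold change was -0.28 for R7-II against R7-I (standard error 0.0330, adjusted p = 2.63e-05, limma) and -0.42 for R7-II against R7-III (adjusted p = 1.84e-06, limma). Between R7-III and R7-I it was 0.13 and did not pass (95% interval 0.06 to 0.21, adjusted p = 0.0190, limma). Without R7-II replicate 1, which leaves both groups compared as they are, it passed (adjusted p = 0.00567, limma; over all alternatives 0.00557 to 0.242). Tspan31, which overlaps Cdk4 on the genome, followed the same order at a far lower level, 45.9 ± 8.52 TPM for R7-II, 56.6 ± 5.56 TPM for R7-I and 70.4 ± 4.01 TPM for R7-III (mean ± SD, n = 3), and its part in the Cdk4 reads was not tested.

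Cdk6, on chromosome 5 (3341004 to 3531008), was nearly level. It was at 42.7, 41.3 and 43.7 TPM in the R7-II libraries, 43.5, 43.15 and 43.3 TPM in those of R7-I and 42.45, 46.2 and 43.4 TPM in those of R7-III. All 3 clones overlapped. In TPM R7-II differed from R7-I by a log2 fold change of -0.02 (95% interval -0.12 to 0.07, adjusted p = 0.624, limma) and from R7-III by -0.05 (95% interval -0.14 to 0.05, adjusted p = 0.344, limma), so a change of more than 1.05-fold upward or below 0.908-fold lies outside both intervals. With median-of-ratios scaling Cdk6 was lower in R7-II by 0.21 and 0.18 on the log2 scale and passed (adjusted p = 9.90e-04 and 0.00271, limma; over all alternatives 9.90e-04 to 0.957 and 0.00271 to 0.827). Its call therefore rests on the scaling. The ratio of Cdk4 to Cdk6 TPM was 11.2, 12.6 and 11.6 in R7-II, 13.7, 14.3 and 14.35 in R7-I and 15.65, 14.4 and 15.7 in R7-III. R7-II was below the other 6 libraries in this ratio, which is the same after division of each library by 1 factor. With quantile normalization, which changes values within a library, Cdk4 fell by 0.18 and Cdk6 by 0.21 on the log2 scale in R7-II against R7-I, so the lower ratio relative to R7-I was absent there, and against R7-III they fell by 0.32 and 0.19.

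The promoters of the kinase pair are shown because the transcripts part in level and in pattern, and because the letters CACGTG, the canonical E-box bound by MYC and related factors, are unevenly spread between them. Sequences are the 250 bases before the RefSeq start site in GRCm38.p6, the assembly that mm10 corresponds to, on the plus strand, with each CACGTG in capitals. The Cdk6 start site is that of 1 RefSeq transcript and lies inside the annotated span of the gene. The Cdk4 window is chr10:127063285-127063534 and the Cdk6 window chr5:3343643-3343892.
Cdk4: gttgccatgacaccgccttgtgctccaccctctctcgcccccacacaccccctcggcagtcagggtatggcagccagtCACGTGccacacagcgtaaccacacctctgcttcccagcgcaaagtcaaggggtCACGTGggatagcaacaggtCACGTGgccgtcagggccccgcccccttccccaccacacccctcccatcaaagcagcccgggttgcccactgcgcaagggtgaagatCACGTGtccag
Cdk6: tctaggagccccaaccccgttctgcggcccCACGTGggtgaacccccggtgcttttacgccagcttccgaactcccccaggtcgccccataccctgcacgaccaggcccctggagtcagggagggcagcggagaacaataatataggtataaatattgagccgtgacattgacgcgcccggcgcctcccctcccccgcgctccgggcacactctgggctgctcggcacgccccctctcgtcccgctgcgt
The Cdk4 window held CACGTG at 4 places, starting 172, 118, 98 and 11 bases before the start site, and the Cdk6 window at 1 place, 220 bases before it. The motif reads the same on both strands. Of all 32851 promoter windows of this length 6.02% held at least 1 match and 7 windows (0.0213%) held 4 or more. Promoters of 8 of the 10 genes, in 11 windows, were in the table, and no other one of them held the motif. Other motifs were searched on both strands. The E2F letters TTCCCGC or TTCGCGC or TTGCCGC or TTGGCGC were found in 7.89% of all windows and in 1 member window, that of Cdkn2c at 25 bases before the start. Their forms with 1 more T in front, which contain them, were found in 1.86% of windows and in no member window. The FOXO letters GTAAACA were found in 3.17% of windows and among the members in 1 Ccnd3 window, and TTTGAA in 16.0% of windows and in no member window. These are matches of letters and not measured binding sites.

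The CIP/KIP inhibitors were higher in R7-II than in the other clones. Cdkn1a, on chromosome 17 (29090979 to 29100722), encodes p21, a p53 target that is also induced by T cell activation. It was at 144, 136 and 105 TPM in the R7-II libraries, 54.0, 56.3 and 78.6 TPM in those of R7-I and 63.55, 62.8 and 66.1 TPM in those of R7-III. All R7-II libraries lay above the other 6, although the R7-I libraries were spread widely, with replicate 3 above every R7-III library. On the log2 scale the change was 1.03 for R7-II against R7-I (standard error 0.138, adjusted p = 7.69e-05, limma) and 0.98 for R7-II against R7-III (adjusted p = 1.14e-04, limma). Between R7-III and R7-I it was 0.05, with a 95% interval from -0.26 to 0.35 (adjusted p = 0.861, limma), and its sign turned with median-of-ratios scaling.

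Cdkn1b, on chromosome 6 (134920401 to 134925525), encodes p27, which holds resting T cells in G0 and is mostly removed by protein degradation on entry into the cycle. It was at 40.4, 31.8 and 43.2 TPM in the R7-II libraries, 19.7, 19.4 and 20.2 TPM in those of R7-I and 21.4, 20.4 and 22.3 TPM in those of R7-III. R7-II stood apart, and its libraries varied more, with a coefficient of variation of 15.4% against 2.12% in R7-I and 4.31% in R7-III. The log2 fold change was 0.92 for R7-II against R7-I (standard error 0.0921, adjusted p = 9.61e-06, limma) and 0.81 for R7-II against R7-III (adjusted p = 2.47e-05, limma). It was 0.11 for R7-III against R7-I (95% interval -0.10 to 0.31, adjusted p = 0.468, limma), where the R7-III libraries all lay above those of R7-I.

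Of the INK4 inhibitors, 1 was highest in R7-II and the other in R7-III. Cdkn2d, on chromosome 9 (21288459 to 21291421), was at 24.0, 21.4 and 18.9 TPM in the R7-II libraries, 11.0, 11.6 and 11.4 TPM in those of R7-I and 12.5, 12.1 and 13.9 TPM in those of R7-III. The 3 clones did not overlap, with R7-II far above the other clones and R7-III slightly above R7-I. The log2 fold change was 0.86 for R7-II against R7-I (standard error 0.0837, adjusted p = 7.92e-06, limma), 0.69 for R7-II against R7-III (adjusted p = 3.83e-05, limma) and 0.17 for R7-III against R7-I, which did not pass (95% interval -0.02 to 0.35, adjusted p = 0.204, limma). For Cdkn1a, Cdkn1b and Cdkn2d the calls of R7-II against both other clones held under every alternative run.

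Cdkn2c, on chromosome 4 (109660876 to 109666756), was, with Ccne2, one of the least abundant of the 10 genes. It was at 1.63, 1.58 and 1.78 TPM in the R7-II libraries, 1.10, 2.08 and 1.75 TPM in those of R7-I and 4.44, 2.43 and 3.25 TPM in those of R7-III. R7-II and R7-I overlapped, and R7-III lay above both. The log2 fold change was -0.69 for R7-II against R7-III (standard error 0.179, adjusted p = 0.00588, limma). This did not pass without R7-II replicate 1, 2 or 3 (adjusted p = 0.0176, 0.0167 and 0.0119) or without R7-III replicate 1 or 3 (0.0265 and 0.0171, limma; over all alternatives 0.00168 to 0.0265), nor with no filter. R7-III against R7-I was 0.72 and did not pass (95% interval 0.32 to 1.12, adjusted p = 0.0192, limma). R7-II against R7-I was 0.03 (95% interval -0.37 to 0.43, adjusted p = 0.897, limma), and its sign turned with median-of-ratios scaling. Cdkn2c thus shared its highest clone, R7-III, with the cyclins and not with the other inhibitors.

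**Figure D3:**
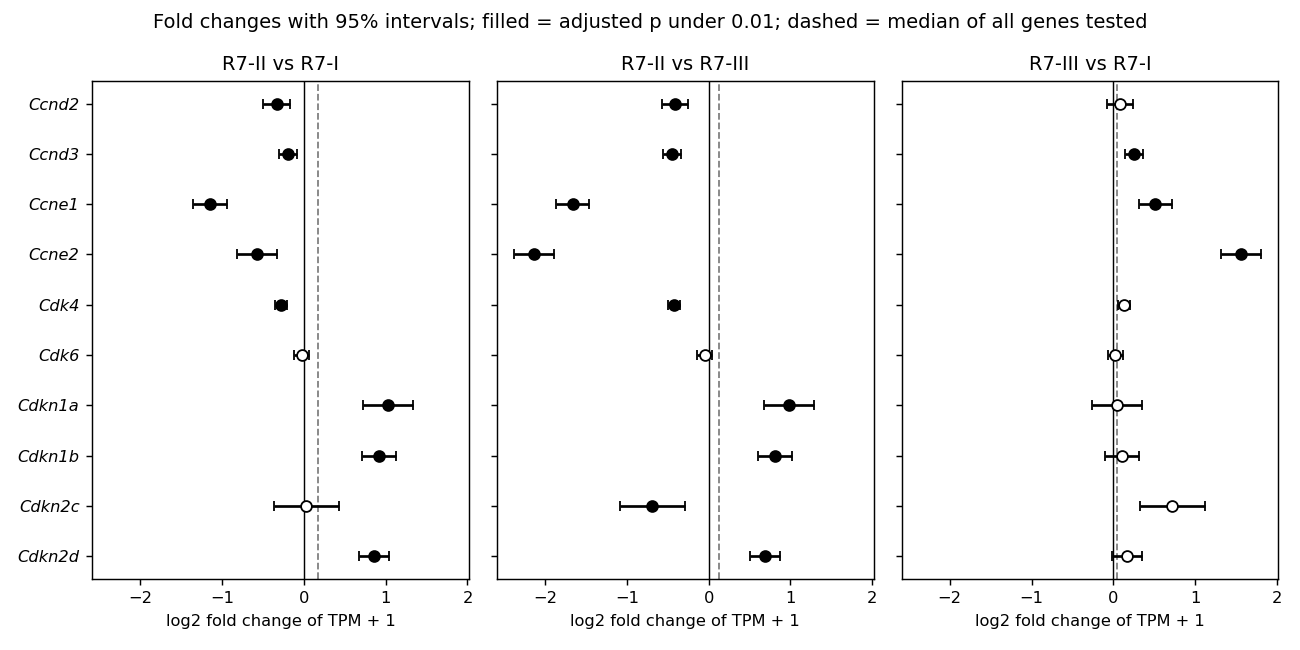
Log2 fold change of TPM + 1 for the 10 genes in the 3 comparisons, with 95% intervals from limma; filled points have an adjusted p under 0.01, open points do not, and the dashed line is the median of all 11330 genes (0.17, 0.12 and 0.04). In R7-II against R7-I the cyclins and Cdk4 lie to the left of 0 and Cdkn1a, Cdkn1b and Cdkn2d to the right; Ccne2 has the largest change of the 10 genes between R7-III and R7-I, 1.56.

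Sums by role show how inhibitors stood to cyclins and kinases within a library. The sums over 4 genes are weighted to the most abundant ones and do not pair each inhibitor with its target. In R7-II Cdkn1a averaged 128 TPM of an inhibitor sum of 190 TPM, and Ccnd2 391 TPM of a cyclin sum of 490 TPM. Per 100 TPM of the 4 cyclins, the 4 inhibitors reached 44.0, 38.4 and 34.2 TPM in the R7-II libraries, 13.97, 14.4 and 17.4 TPM in those of R7-I and 16.4, 13.3 and 14.3 TPM in those of R7-III. R7-I and R7-III overlapped and R7-II was above all 6. INK4 transcripts per 100 TPM of Cdk4 and Cdk6 were at 3.75 to 4.93 TPM in R7-II, 1.89 to 2.08 TPM in R7-I and 2.05 to 2.40 TPM in R7-III. The kinases were far more abundant than the INK4 inhibitors in every library. CIP/KIP transcripts stood at 787 to 1212 TPM per 100 TPM of E-type cyclins in R7-II, 174 to 254 TPM in R7-I and 129 to 144 TPM in R7-III, so here all 3 clones were apart, with R7-III lowest. Levels are of RNA, and in these sorted populations fewer cells that express a gene and less RNA per cell cannot be told apart.

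R7-II lay outside the range of the other 6 libraries for 8 of the 10 genes, above for 3 and below for 5. Over all genes tested this held for 59.1%, above for 41.7% and below for 17.4%. An exact two-sided permutation test, with 3 R7-II libraries set against 6, gave each of these 8 genes p = 0.0238. That is the smallest value 3 against 6 allow, and a gene whose R7-II libraries lie outside the other 6 always reaches it. The test therefore adds nothing to the ranges for these 8 genes. In TPM the exact permutation test gave p = 0.262 for Cdk6 and 0.310 for Cdkn2c. After median-of-ratios scaling the exact permutation test gave p = 0.0238 for Cdk6 and 0.167 for Cdkn2c. With 3 libraries against 3 an exact p cannot fall below 0.1, so no pairwise exact test could pass. The full order R7-II below R7-I below R7-III, with no overlap, held for 4 of the 10 genes (Ccnd3, Ccne1, Ccne2 and Cdk4) and for 5.8% of all genes.

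Marker genes of B cells, myeloid cells and MHC class II were higher in R7-II, as were Cdkn1a, Cdkn1b and Cdkn2d. In R7-II all 8 B cell genes tested and all 7 MHC class II genes passed as higher in both comparisons, and 9 and 10 of the 12 myeloid genes did so against R7-I and R7-III. Of all genes tested 40.6% and 35.6% did so. Of 11 CD8 T cell genes 8 passed as higher and 1 as lower in R7-II in each comparison. With median-of-ratios scaling 6 of them were higher and 1 lower. Within R7-II, replicate 2 had the lowest sums of the B cell, myeloid and MHC class II lists. It had the lowest Cdkn1b of that clone (31.8 TPM), and its Cdkn1a (136 TPM) and Cdkn2d (21.4 TPM) were at the middle of the R7-II libraries. R7-II replicate 3 had the highest myeloid sum (173 TPM) and the highest Cdkn1b (43.2 TPM) of the clone. Its Cdkn1a (105 TPM) and Cdkn2d (18.9 TPM) were the lowest of the clone, so the markers and these genes did not run together there. Leaving out any 1 library kept the log2 fold change of Cdkn1a over R7-I between 0.93 and 1.19. All R7-II libraries had the higher marker sums, so this range does not bear on the part of other cells. The part of other cells in the inhibitor transcripts was not tested.

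The rest of the G1 machinery and the pathways on either side of it were described by lists. Their counts are to be read against the shares of all genes tested. These were 40.6% higher and 15.5% lower in R7-II against R7-I, and 35.6% and 18.0% against R7-III. In R7-III against R7-I they were 6.96% and 1.45%. Of 18 other cyclin, kinase and inhibitor genes, 12 passed the filter. Between R7-II and R7-I 2 were higher and 4 lower, and between R7-II and R7-III 2 were higher and 5 lower, with medians of -0.04 and -0.01 against 0.17 and 0.12 for all genes. With median-of-ratios scaling 2 were higher and 8 lower than in R7-I, and the medians were -0.22 and -0.13. Ccna2, the cyclin of S phase and G2, fell most, with 1.47 TPM for R7-II, 6.14 TPM for R7-I and 17.5 TPM for R7-III and log2 fold changes of -1.53 and -2.90 for R7-II. Cdc25a, the phosphatase that activates CDK2, averaged 29.5, 57.4 and 70.5 TPM, and such triplets are clone means in the order R7-II, R7-I, R7-III. Cdk2 was at 49.6, 59.4 and 75.9 TPM. Ccna2, Cdc25a and Cdk2 also passed as higher in R7-III than in R7-I. With median-of-ratios scaling 2 genes of this list passed as higher in that comparison. The higher genes in R7-II were Cdk3-ps, a pseudogene at 1.86, 0.300 and 0.630 TPM, and Cdk2ap2, which encodes a CDK2-associated protein, at 193, 132 and 139 TPM. The genes of p57 (Cdkn1c), p16 and ARF (Cdkn2a) and p15 (Cdkn2b), the inhibitors of the same families that are not among the 10, did not exceed 0.33 TPM in any library.

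Of 17 genes for the turnover of p27 and cyclin E by ubiquitin ligases, 5 were higher and 4 lower in R7-II relative to R7-I, and 5 and 6 against R7-III. After median-of-ratios scaling these counts were 2 and 10, and 4 and 10, so the balance of this list rests on the scaling. Cks1b, the cofactor with which SKP2 recognises p27, averaged 43.3 TPM for R7-II, 77.0 TPM for R7-I and 104 TPM for R7-III (log2 fold changes of R7-II -0.82 and -1.25). Dtl, a substrate receptor for the degradation of p21 and of licensing factors in S phase, was at 16.2, 38.7 and 65.6 TPM. Skp2 itself was at 4.38, 6.70 and 8.10 TPM, and its log2 fold change of -0.75 between R7-II and R7-III passed (adjusted p = 5.50e-05, limma). Rnf123, a subunit of a ligase that acts on p27 in G1, went the opposite way, from 27.3 TPM in R7-I to 45.0 TPM in R7-II. Usp28, a deubiquitinase, also rose in R7-II and was at 17.9, 9.82 and 9.81 TPM.

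Of 12 tested pocket protein and E2F genes, 4 were higher and 4 lower in R7-II relative to R7-I, 2 and 6 against R7-III, and 5 were higher in R7-III than in R7-I. With median-of-ratios scaling the counts for R7-II were 4 and 6, and 1 and 6, and 4 were higher in R7-III than in R7-I. Rbl2, the pocket protein p130 of resting cells, averaged 37.1 TPM for R7-II, 13.2 TPM for R7-I and 17.5 TPM for R7-III, and E2f1, an activating factor, was at 11.8, 27.4 and 41.6 TPM. E2f8, an atypical E2F, was at 0.193, 0.667 and 2.60 TPM, and E2f3 at 6.10, 9.63 and 15.1 TPM. Tfdp2, an E2F partner, and E2f2 rose in R7-II relative to R7-I, with 5.32, 2.18 and 3.82 TPM of Tfdp2 and 1.72, 0.790 and 2.96 TPM of E2f2. Of 20 E2F target genes of the G1/S transition, 17 were lower in R7-II relative to R7-I and 20 lower than in R7-III, and 18 were higher in R7-III than in R7-I. Their median log2 fold changes were -0.55, -1.01 and 0.46. With median-of-ratios scaling 19, 20 and 13 passed in these directions, and the medians were -0.73, -1.15 and 0.41. Cdc6, which licenses origins, averaged 2.48 TPM for R7-II, 12.4 TPM for R7-I and 27.6 TPM for R7-III, the order in which Ccne1, Ccne2 and Cdk4 also stood, and Rrm2, a subunit of ribonucleotide reductase, was at 4.74, 19.4 and 49.1 TPM.

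On the side of the inhibitors, 13 of 17 p53 target genes passed as higher in R7-II relative to R7-I and 1 as lower, and 11 and 1 against R7-III, with medians of 0.54 and 0.45. With median-of-ratios scaling the counts were 11 and 1, and 10 and 1, and the medians 0.35 and 0.34. Trp53inp1 averaged 106 TPM for R7-II, 17.7 TPM for R7-I and 18.6 TPM for R7-III, and Bbc3, which encodes the death protein PUMA, was at 44.5, 12.5 and 16.8 TPM. The p53 target that fell in R7-II was Tigar, listed under the older symbol 9630033F20Rik, at 12.7 ± 0.323 TPM for R7-II, 17.1 ± 0.969 TPM for R7-I and 18.8 ± 3.67 TPM for R7-III (mean ± SD, n = 3). Of 16 FOXO target and quiescence genes, among which Cdkn1b is commonly counted, 15 passed as higher in R7-II in each comparison and 1, Cited2, as lower against R7-III alone, with medians of 1.04 and 1.17. Klf2, a factor of resting T cells, changed most and was at 102, 9.14 and 9.36 TPM. Pik3ip1, an inhibitor of PI3-kinase, averaged 34.6 TPM for R7-II, 3.17 TPM for R7-I and 3.24 TPM for R7-III. Ccng2, an atypical cyclin of arrested cells, was at 14.5, 3.67 and 1.77 TPM.

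Of 14 tested upstream regulators 6 were higher and 5 lower in R7-II relative to R7-I, and 6 and 4 against R7-III. The shares of all genes were 40.6% higher and 15.5% lower, and 35.6% and 18.0%, so the upward counts lie near them. Tcf7, a factor of naive and memory cells, was at 481 TPM in R7-II and 180 and 183 TPM in R7-I and R7-III. Lef1, a factor related to Tcf7, was at 118, 60.9 and 56.2 TPM, Egr1, an early response factor, at 178, 98.0 and 98.8 TPM, and Gfi1, a repressor of transcription, at 49.9, 83.3 and 66.3 TPM. Myc, named here after its values were seen, was abundant in every clone at 545 ± 25.9 TPM for R7-II, 648 ± 12.4 TPM for R7-I and 598 ± 11.3 TPM for R7-III (mean ± SD, n = 3), and the log2 fold change between R7-II and R7-I was -0.25 (adjusted p = 8.84e-05, limma). Mean Myc was highest in R7-I and mean Cdk4 in R7-III, and a link between the levels of these genes was not tested. Of 8 T cell activation genes 6 passed as lower and 1 as higher in R7-II relative to R7-I, and 5 and 1 relative to R7-III.

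**Figure D4:**
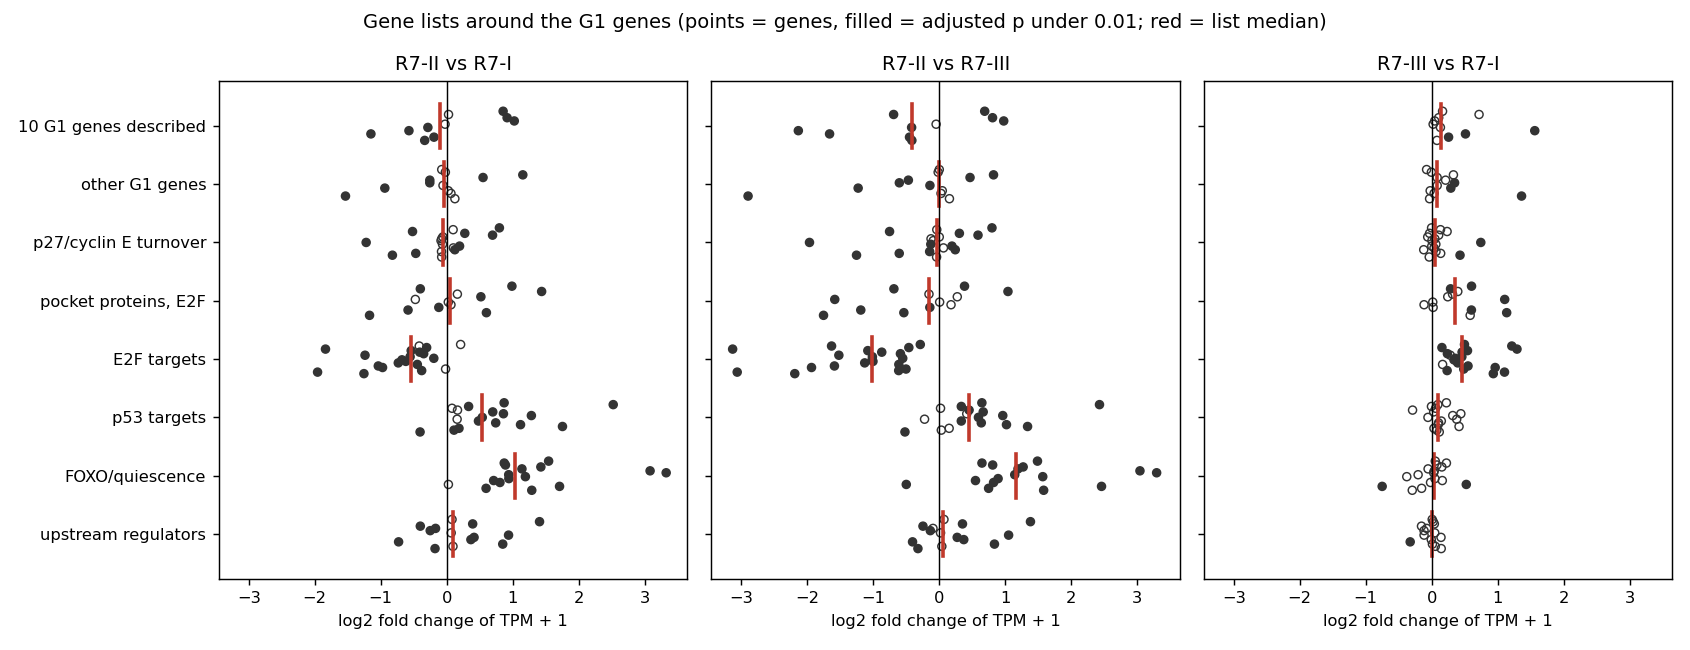
Log2 fold change of TPM + 1 for every tested gene of 8 lists (rows) in the 3 comparisons (panels); filled points have an adjusted p under 0.01 in limma, open points do not, and the red line is the median of a list. The E2F targets have medians of -0.55, -1.01 and 0.46, and the p53 and FOXO lists lie mostly to the right of 0 in both comparisons of R7-II.

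The genes most alike in pattern were those with the highest Pearson correlation of log2(TPM + 1) over the 9 libraries and are given as a description. For Ccne1 these were Mcm5 (0.999) and Wee1 (0.998), for Ccne2 Hmgb2 (0.996) and Prim2 (0.995), and for Cdk4 Tipin (0.997) and Cdk1 (0.997). For Cdkn1a they were Ccng1 (0.995) and 9030617O03Rik (0.994), for Cdkn1b H2-K1 (0.997) and Tk2 (0.996), and for Cdkn2d Rnf144a (0.995) and Gak (0.994). Ccng1 followed Cdkn1a also within R7-I, where replicate 3 had the highest value of both genes, with 152 TPM of Ccng1 against 119 and 118 TPM in replicates 1 and 2. For Ccnd3 they were Aarsd1 (0.990) and Tubb6 (0.989), for Cdkn2c Ogg1 (0.954) and Zranb3 (0.939), and for Cdk6, whose level hardly moved, Nme3 (0.880) and Snx16 (0.861).

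For Ccnd2 the gene most alike was its neighbour on chromosome 6, Tigar (0.964), followed by Mrpl51 (0.962). Tigar lies at 127085116 to 127109552, 15610 bases from Ccnd2 in the RefSeq annotation. In R7-III replicate 1, the library in which Ccnd2 was low for its clone, Tigar was at 14.6 TPM against 20.3 and 21.5 TPM in replicates 2 and 3. Both genes were thus lower in that library than in the other R7-III libraries, and both were lower in R7-II than in the other clones. Within R7-I and within R7-II the genes did not run together. R7-I replicate 3 had the highest Ccnd2 and the lowest Tigar of its clone. R7-II replicate 1 had the lowest Ccnd2 and the highest Tigar of its clone.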

How the data were processed

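Sorted, ROP7 peptide-activated CD8 T cells gave 9 RNA libraries, 3 for each clone. The authors estimated gene levels from single-end, unstranded reads with RSEM 1.2.11 and the RefSeq genes of mm10, and deposited TPM values for each gene symbol. The study names RSEM for the alignment too, and the program that RSEM ran for it is not given in the methods read here. TPM keeps no depth, so no counting interval is given. The authors tested counts with DESeq2; those counts were not used here, and limma stands in its place.

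Genes with a maximum TPM above 1 entered limma 3.58.1 (lmFit, then eBayes with trend) under R 4.3.3 as log2(TPM + 1). A single fit held all 9 libraries, p-values were adjusted by Benjamini-Hochberg, and 0.01 was the threshold. This scale understates changes of low genes. Exact permutation tests used scipy 1.17.1. The fit was tested beforehand on simulated data with 200 of 11330 genes changed. It found 91% to 94% of log2 changes of 1 and 66% to 74% of the smaller ones, with at most 1 false call. Far fewer genes changed there than passed between R7-II and the other clones, so it does not cover that setting.

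The members, lists and motifs were chosen with earlier results of these data known. All 10 members are named, and of each list genes among the 4 with the largest changes past the threshold in a comparison, beside the 2 genes most correlated with each member. Myc, Tigar and Cited2 were named after their values were seen. For 2 list genes an older symbol was matched. Gene positions and promoters are from RefSeq on GRCm38.p6. As alternatives the pseudocount (0.1 and 5), filter, scaling, moderation and threshold were changed, the clones compared were fitted alone, the replicate number entered as a block, and libraries were left out singly.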

Additional observations from a re-analysis of the deposited data

How the results depend on the processing

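The calls of Ccne1, Ccne2, Cdk4, Cdkn1a, Cdkn1b and Cdkn2d in both comparisons of R7-II kept their direction and their side of the threshold under every alternative run, except that Ccne2 was not tested with a filter of at least 1 TPM in every library. The number of the 10 genes passing between R7-III and R7-I was 3, and it was 1 with no filter, with median-of-ratios scaling, with quantile normalization or with eBayes without trend, 5 at an adjusted p of 0.05, and between 1 and 4 when single libraries were left out (1 without R7-I replicate 1 or 3 or R7-III replicate 2 or 3). Over all genes this comparison gave 953 calls, 2142 at an adjusted p of 0.05, and 436 (without R7-I replicate 1) to 1120 with libraries left out, 577 without R7-I replicate 2 and 496, 497 and 530 without R7-III replicates 1, 2 and 3. Signs turned for changes that did not pass. Cdkn2c in R7-II against R7-I was -0.087 with median-of-ratios scaling, -0.31 with quantile normalization and -0.13 to 0.15 with libraries left out. Between R7-III and R7-I, Cdk6 was -0.030 and -0.026 under these scalings and -0.012 to 0.048 with libraries left out, and Cdkn1a was -0.0067 with median-of-ratios scaling and -0.053 to 0.21 with libraries left out. The cause was not tested.

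Libraries that share a replicate number did not deviate together: their correlations were between -0.0449 and 0.0888. With the replicate number as a block the counts among the 10 genes were 7, 8 and 2 in place of 8, 9 and 3, as Ccnd3 against R7-I (adjusted p = 0.0115 for R7-II and 0.0142 for R7-III, limma) and Cdkn2c between R7-II and R7-III (adjusted p = 0.0132, limma) no longer passed. The depth of the libraries is unknown, which limits what can be said of Ccne2 and Cdkn2c, the members with the lowest TPM.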
